A study of Mus musculus with 4 samples.

Results

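The unfolded protein response is the set of signals by which a cell answers misfolded protein in the endoplasmic reticulum (ER). The 38 genes described here are its regulators and targets together with the ER folding machinery, chosen by gene symbol out of 32227 genes counted in each of 2 single-cell libraries. All 38 symbols were found. They comprise 6 stress regulators, 4 targets of ATF4 and CHOP, 8 ER chaperones and other ATF6-type targets, 17 XBP1-type targets, and 3 further folding enzymes and lectins. The study sampled bone marrow of wild-type mice, all of which carried E0771 breast cancer cells injected 3 days before surgery, and compared sham surgery with ligation of the femoral artery, the main vessel of the hind limb. Marrow was taken 9 days after surgery and sorted for stem and progenitor cells, which carry cKit, lack mature lineage markers and were taken at both levels of Sca1. Every replicate carried a hashtag, an oligonucleotide label that marks its cells, and each library (batch 1 and batch 2) held 2 sham and 2 surgery replicates by hashtag name, which makes 4 per group. The ages of the mice are not given in the sources used here, and no group without tumour cells was analysed, so every value below comes from tumour-bearing mice.

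Sensors in the ER membrane, IRE1 alpha, PERK and ATF6, start the response in mammals. IRE1 alpha, encoded by Ern1, cuts Xbp1 mRNA so that an active transcription factor is made, and XBP1 then raises genes of protein translocation, folding and ER-associated degradation. PERK, encoded by Eif2ak3, slows translation and favours synthesis of ATF4, which raises amino acid metabolism genes and Ddit3, the gene of the pro-apoptotic factor CHOP. ATF6 is released by proteolysis and raises chaperone genes such as Hspa5. Blood stem cells are known for low protein synthesis and for sensitivity to ER stress. The cut form of Xbp1 mRNA, phosphorylation and proteolysis were not measured here, since the files hold whole-gene counts.

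Promoter sequences are shown first and were searched for DNA elements described for this response. The 38 genes were chosen as members of the same response, so the shares below are descriptions and no test. RefSeq promoters on GRCm38.p6 were found for 33 of the 38 genes, and 300 bases were searched on both strands, 250 before and 50 after the transcript start. The ER stress response element, written as CCAAT and CCACG with 9 bases of any kind between them, was found in 8 of the 33 genes (24.2%), against 0.137% of all 27025 genes with a promoter. The 8 were Calr, Canx, Creld2, Dnajc3, Hsp90b1, Hspa5, Pdia6 and Syvn1. A related element, ATTGG and CCACG with 1 base between them, was found in Herpud1 (3.03% of the 33 genes, 0.0444% of all). The amino acid response element bound by ATF4 with its partners, searched as TGATGNAAN, was found in Asns, Chac1, Herpud1 and Trib3 (12.1% against 4.5%). An unfolded protein response element, searched as the exact letters TGACGTGG, was in none of the 33 promoters and in 0.714% of all genes. That is not read as a lack of XBP1 sites. Among the XBP1-type targets, Dnajc3, Pdia6 and Syvn1 held the ER stress response element. The printed stretches are the 250 bases before the start in the direction of transcription, with the match to the element a gene stands for in capitals. Hspa5, Hsp90b1, Pdia6 and Creld2 stand for the first element, Herpud1 for the second and Asns for the third.

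Hspa5 promoter, chr2:34771840-34772089, + strand: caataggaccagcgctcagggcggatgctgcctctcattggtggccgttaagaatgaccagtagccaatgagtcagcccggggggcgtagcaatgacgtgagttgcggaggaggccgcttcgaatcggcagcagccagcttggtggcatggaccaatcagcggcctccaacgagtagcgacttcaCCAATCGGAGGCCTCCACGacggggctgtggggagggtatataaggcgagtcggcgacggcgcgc
Hsp90b1 promoter, chr10:86705445-86705694, - strand: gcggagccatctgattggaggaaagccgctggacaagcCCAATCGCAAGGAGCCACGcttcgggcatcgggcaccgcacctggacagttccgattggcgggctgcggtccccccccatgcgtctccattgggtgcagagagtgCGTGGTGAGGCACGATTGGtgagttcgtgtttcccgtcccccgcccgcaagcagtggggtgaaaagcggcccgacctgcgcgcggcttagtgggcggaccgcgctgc
Pdia6 promoter, chr12:17266339-17266588, + strand: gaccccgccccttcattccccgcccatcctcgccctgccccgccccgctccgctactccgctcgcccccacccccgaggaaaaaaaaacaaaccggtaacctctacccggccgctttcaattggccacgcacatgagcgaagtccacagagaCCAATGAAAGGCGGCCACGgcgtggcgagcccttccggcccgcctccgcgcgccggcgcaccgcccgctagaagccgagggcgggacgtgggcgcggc
Creld2 promoter, chr15:88819396-88819645, + strand: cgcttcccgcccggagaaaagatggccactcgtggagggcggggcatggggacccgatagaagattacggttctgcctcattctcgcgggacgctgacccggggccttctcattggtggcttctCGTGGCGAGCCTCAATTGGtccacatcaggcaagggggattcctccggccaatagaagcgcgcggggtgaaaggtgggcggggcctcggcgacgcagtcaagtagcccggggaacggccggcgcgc
Herpud1 promoter, chr8:94386179-94386428, + strand: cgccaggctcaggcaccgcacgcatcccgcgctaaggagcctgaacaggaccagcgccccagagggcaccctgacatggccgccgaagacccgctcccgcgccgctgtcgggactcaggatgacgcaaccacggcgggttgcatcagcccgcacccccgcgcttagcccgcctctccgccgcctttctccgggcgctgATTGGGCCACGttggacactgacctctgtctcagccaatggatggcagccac
Asns promoter, chr6:7693210-7693459, - strand: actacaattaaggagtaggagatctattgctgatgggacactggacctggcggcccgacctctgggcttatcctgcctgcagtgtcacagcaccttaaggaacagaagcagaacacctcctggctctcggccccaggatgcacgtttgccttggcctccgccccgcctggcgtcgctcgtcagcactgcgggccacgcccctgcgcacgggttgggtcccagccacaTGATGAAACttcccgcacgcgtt

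In Hspa5 the match began 65 bases before the start. Hsp90b1 held 2 matches, at 212 and 107 bases, the nearer of them on the other strand. The Pdia6 match began at 98 bases and the Creld2 match at 126 bases, on the other strand. In Herpud1 the second element began at 52 bases, and its match to the amino acid response element is left in lower case. In Asns the match to the third element began at 23 bases. A match of letters is a description of these stretches and not a measured binding site.

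After quality filters and exclusion of barcodes with no or several hashtags, 26880 cells remained, with 1878 to 5872 cells and between 19450143 and 51682320 unique molecular identifiers (UMIs, counts of captured mRNA molecules) per replicate. Cells of batch 2 were deeper, with replicate medians of 10291 to 12393.5 UMIs against 5860.5 to 7206.5 in batch 1. By its treatment label each library holds a single group, but by hashtag name both groups are in each. Every statement about surgery rests on those names, and since nothing states how many mice make up a replicate, the tests measure the spread between these replicates. The libraries shared 5 cell barcodes after filtering. Clusters took the name of the class whose markers led them, and a name stands for cells like that class. There were 12 named classes, from 166 eosinophil progenitors to 4778 monocyte progenitors, and 7 unnamed clusters with 4731 cells. The class found by markers of mature neutrophils is called neutrophil-lineage cells with S100a8 and S100a9, since the cells came from a cKit-positive gate. The clusters named B cell had Vpreb1 and Igll1, genes of B-cell precursors, among their leading genes. Clusters led by Ms4a1 and Igkc, Myl4 and Fcrla, or Ighd and Cd74 stayed unnamed, so the name B cells below does not cover the whole B lineage. No cluster took the name plasma cell, macrophage, endothelial, stromal or epithelial cell. Of the 38 genes, Edem3 and Eif2ak3 were among the 2000 variable genes used for clustering. Levels are given as CPM, the UMIs of a gene scaled to all UMIs of the same replicate within the class, and are compared between classes for 1 gene at a time.

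Across the classes, many of the ER folding genes were high in granulocyte-type progenitors and low in erythroid and T, NK or innate lymphoid cells. The class with the highest mean level was eosinophil progenitors for 10 genes, basophil-mast progenitors for 7 and neutrophil-granulocyte progenitors for 7. It was neutrophil-lineage cells for 5, B cells for 4, dendritic cell progenitors for 3 and erythroid progenitors for 2. The lowest level was in erythroid progenitors for 13 genes and in T, NK or innate lymphoid cells for 10. These are descriptions with no test, since the classes were built from the same cells. In sums over cells, fewer producing cells and less RNA per cell cannot be told apart. For 8 genes the top class exceeded the median class more than 3 times, and for 16 genes less than 2 times.

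**Figure D1:**
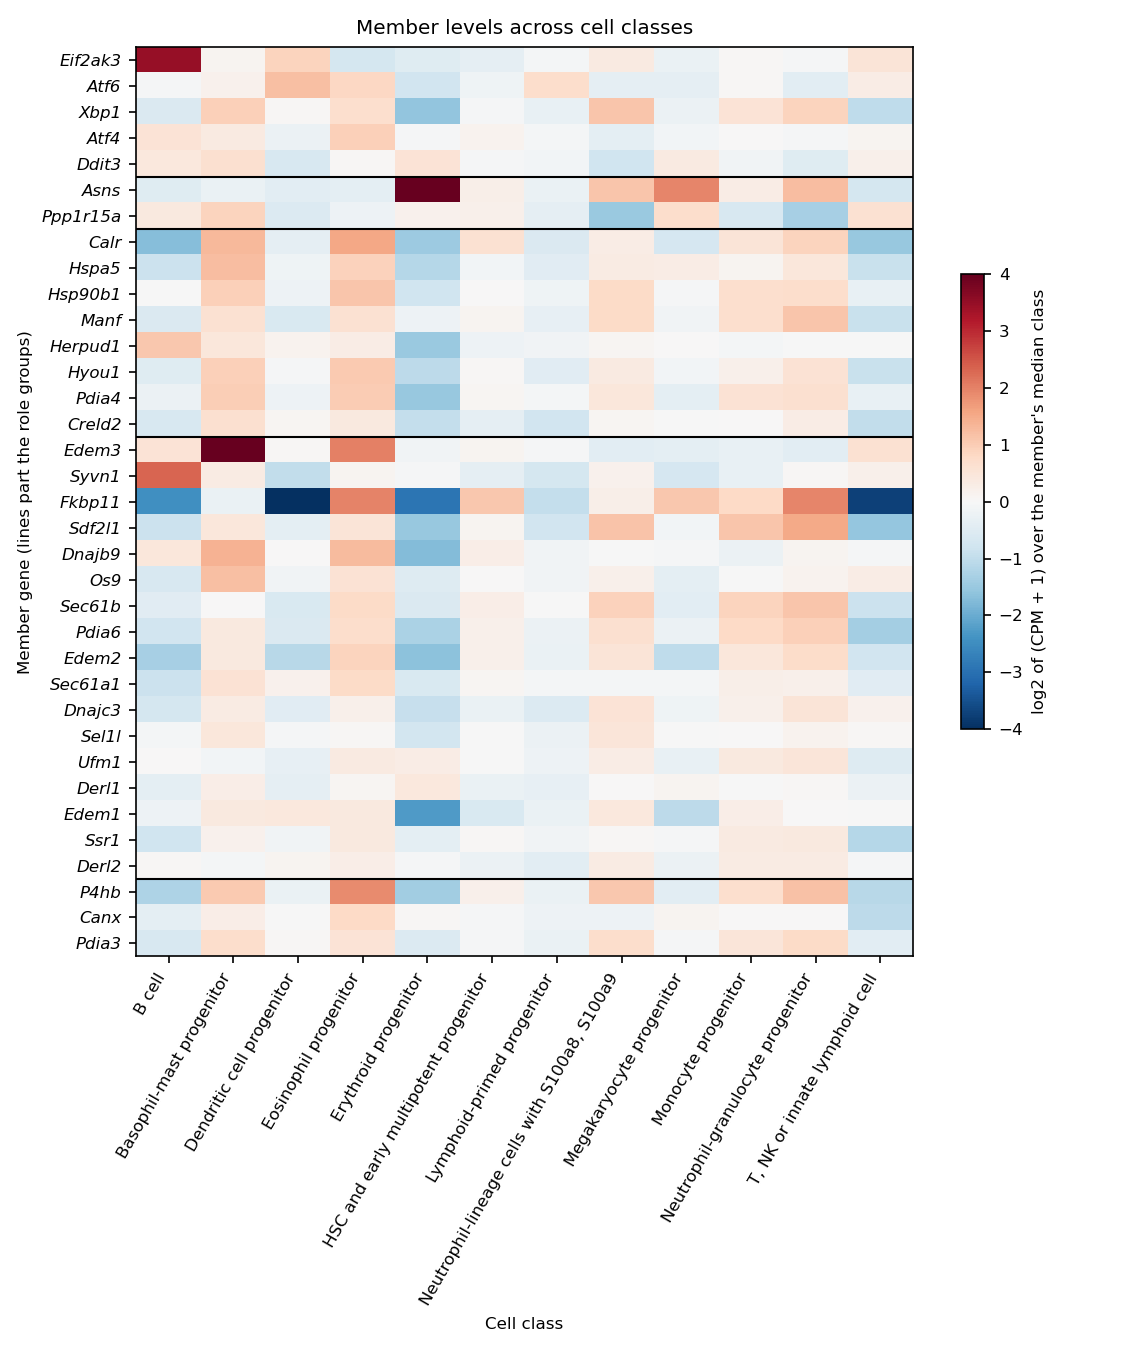
Mean level of 35 of the 38 genes in the 12 named classes, as log2 of (CPM + 1) over the gene's median class, with lines between the role groups. Trib3, Chac1 and Wfs1 are left out as very low, and differences beyond 4 in either direction take the end colour. Eif2ak3 and Syvn1 stand out in B cells, Asns in erythroid progenitors, Edem3 in basophil-mast progenitors, and most chaperones in basophil-mast and eosinophil progenitors.

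Among the stress regulators, Eif2ak3 had the highest ratio of its top class to its median class. Its level was 226 ± 38.1 CPM in B cells (SD, n = 8 replicates, lowest 188, median 212, highest 302) and 36.4 ± 12.9 CPM in dendritic cell progenitors, the next class. The other named classes lay between 11.6 and 27.9 CPM. No replicate of another named class reached the B cell range, whereas neighbours lower in the order overlapped. Unnamed clusters led by B-lineage genes were also high, with 167 ± 39.6 CPM in the cluster led by Ms4a1 and Igkc, 165 ± 53.0 in that led by Myl4 and Fcrla, and 149 ± 53.9 in that led by Ighd and Cd74. Plasma cells use this pathway heavily, so their 7 listed markers were summed: 607 to 794 CPM in sham and 650 to 808 CPM in surgery replicates of the B cell class, with none at 0. The sums were 2704 to 3450 and 2319 to 3766 CPM in the Ms4a1 cluster, 802 to 1115 and 794 to 1361 CPM in the Myl4 cluster, and 1981 to 3030 and 1875 to 3334 CPM in the Ighd cluster. Tnfrsf17 was at 0 in these 3 clusters, Jchain also in the Myl4 and Ighd clusters, and Derl3 in the latter. The list includes Igkc, a light-chain gene of ordinary B cells that is among the leading genes of the Ms4a1 and Ighd clusters, so the sums do not tell plasma cells from other B-lineage cells. The part of plasma cells in these levels was not tested.

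Atf6, the transcription factor precursor, was highest in dendritic cell progenitors (149 ± 42.1 CPM) and eosinophil progenitors (114 ± 37.1 CPM), whose replicates overlapped, and lowest in erythroid progenitors (37.4 ± 3.55 CPM). Xbp1 was highest in neutrophil-lineage cells (149.5 ± 6.67 CPM), basophil-mast progenitors (134 ± 19.9 CPM) and neutrophil-granulocyte progenitors (128 ± 4.08 CPM). It was 66.7 ± 3.88 CPM in stem and early multipotent progenitors (HSC class), 55.2 ± 6.01 CPM in lymphoid-primed progenitors and 22.0 ± 3.13 CPM in erythroid progenitors. The erythroid replicates, 18.3 to 26.7 CPM, lay below the 58.9 to 70.8 CPM of the HSC class. Atf4 varied less, from 123 ± 12.8 CPM in neutrophil-lineage cells to 313 ± 56.5 CPM in eosinophil progenitors. Ddit3 was between 22.1 ± 3.57 CPM in neutrophil-lineage cells and 61.5 ± 7.93 CPM in basophil-mast progenitors. Wfs1, which encodes the ER membrane protein wolframin, was at most 4.27 ± 4.41 CPM in any named class.

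The ATF4 and CHOP targets had patterns of their own. Asns, the enzyme that makes asparagine, was 131 ± 4.01 CPM in erythroid progenitors (lowest replicate 124, median 131, highest 136). Megakaryocyte progenitors followed with 21.9 ± 5.37 CPM, and the HSC class had 6.01 ± 1.51 CPM. No other class came near the erythroid replicates. Ppp1r15a, a phosphatase subunit that ends the translation block, was 126 ± 17.2 CPM in basophil-mast and 110.0 ± 17.2 CPM in megakaryocyte progenitors, which overlapped, against 22.9 ± 3.69 CPM in neutrophil-lineage cells. Trib3, a pseudokinase that CHOP raises, had 74 UMIs in B cells (7.51 ± 2.53 CPM) and at most 12 UMIs in any other named class. Chac1, which degrades glutathione, had 30 UMIs in neutrophil-lineage cells, 27 in neutrophil-granulocyte progenitors and 0 in 5 named classes. In erythroid progenitors, the deepest of those 5 with a total of 28344985 UMIs, a count of 0 allows a level of up to 0.106 CPM, for counting error only.

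Of the 8 chaperones and ATF6-type targets, 6 were highest in basophil-mast or eosinophil progenitors, the exceptions being Manf and Herpud1. Hspa5, the central ER chaperone BiP, was 1352 ± 339 CPM in basophil-mast progenitors (770.1 to 1930.0 over 8 replicates), 1087 ± 231 CPM in eosinophil progenitors and 259 ± 41.1 CPM in erythroid progenitors. The replicates of the first 2 overlapped. Calr, the calcium-binding lectin chaperone calreticulin, was 2111 ± 160 CPM in eosinophil, 1745 ± 120 CPM in basophil-mast and 1326 ± 62.1 CPM in neutrophil-granulocyte progenitors, and 220.1 ± 24.4 CPM in B cells. Hsp90b1, an HSP90 of the ER, was 988 CPM in eosinophil, 878 CPM in basophil-mast and 259.6 CPM in erythroid progenitors. Manf, a secreted stress factor kept in the ER, was 543 CPM in neutrophil-granulocyte progenitors and 423 CPM in neutrophil-lineage cells, the next class. Herpud1, a membrane protein of ER-associated degradation, was 161 ± 19.6 CPM in B cells and 448 ± 71.8 CPM in the unnamed cluster led by Myl4 and Fcrla, against 26.6 ± 4.22 CPM in erythroid progenitors. Over the 12 class means, 23 of the other 37 genes had a Spearman rho above 0.5 with Hspa5 and 6 had one below 0. Hyou1 (0.95), Creld2 (0.91), Xbp1 (0.90) and Hsp90b1 (0.90) were closest, and Trib3 (-0.47) was farthest. The class means share replicates, libraries and scaling, so these coefficients are descriptions over 12 points.

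Several XBP1-type targets were high in single classes. Edem3, which trims mannose from misfolded glycoproteins, was 435 ± 64.9 CPM in basophil-mast progenitors (lowest replicate 343, median 424, highest 538) and 102 ± 51.8 CPM in eosinophil progenitors. The other named classes had 18.0 to 38.1 CPM, and no replicate of them reached the basophil-mast range. Of the unnamed B-lineage clusters, Edem3 was 240.0 ± 48.1 CPM in the cluster led by Ms4a1 and 178 ± 29.0 CPM in that led by Myl4, above the eosinophil mean. Edem1 and Edem2, its relatives, had top levels of 103.5 CPM in dendritic cell progenitors and neutrophil-lineage cells, and of 116 CPM in eosinophil progenitors. Syvn1, the ubiquitin ligase HRD1 of ER-associated degradation, was 104 ± 9.74 CPM in B cells, 143 ± 32.1 CPM in the Ms4a1 cluster and 25.6 ± 6.71 CPM in basophil-mast progenitors, the next named class. Fkbp11, a peptidyl-prolyl isomerase, was 83.9 ± 22.5 CPM in eosinophil and 83.1 ± 11.7 CPM in neutrophil-granulocyte progenitors, which overlapped, 2.96 ± 0.984 CPM in B cells and absent from the counts of dendritic cell progenitors, where 0 of 1567271 UMIs allows up to 1.91 CPM. Eif2ak3, Syvn1 and Herpud1 were thus high in a class with almost no Fkbp11. When members and the other pathway genes were left out of the clustering, 1386 of 1391 basophil-mast cells and 2182 of 2205 B cells carried the same name as before. The other classes used below were less stable: the HSC class had 1449 cells, 1417 of them named so before, in place of 2509, and lymphoid-primed progenitors had 1482, 1320 of them named so before, in place of 1914. Neutrophil-lineage cells numbered 213 in place of 1500, so every level and fold change given for that class rests on the first clustering.

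**Figure D2:**
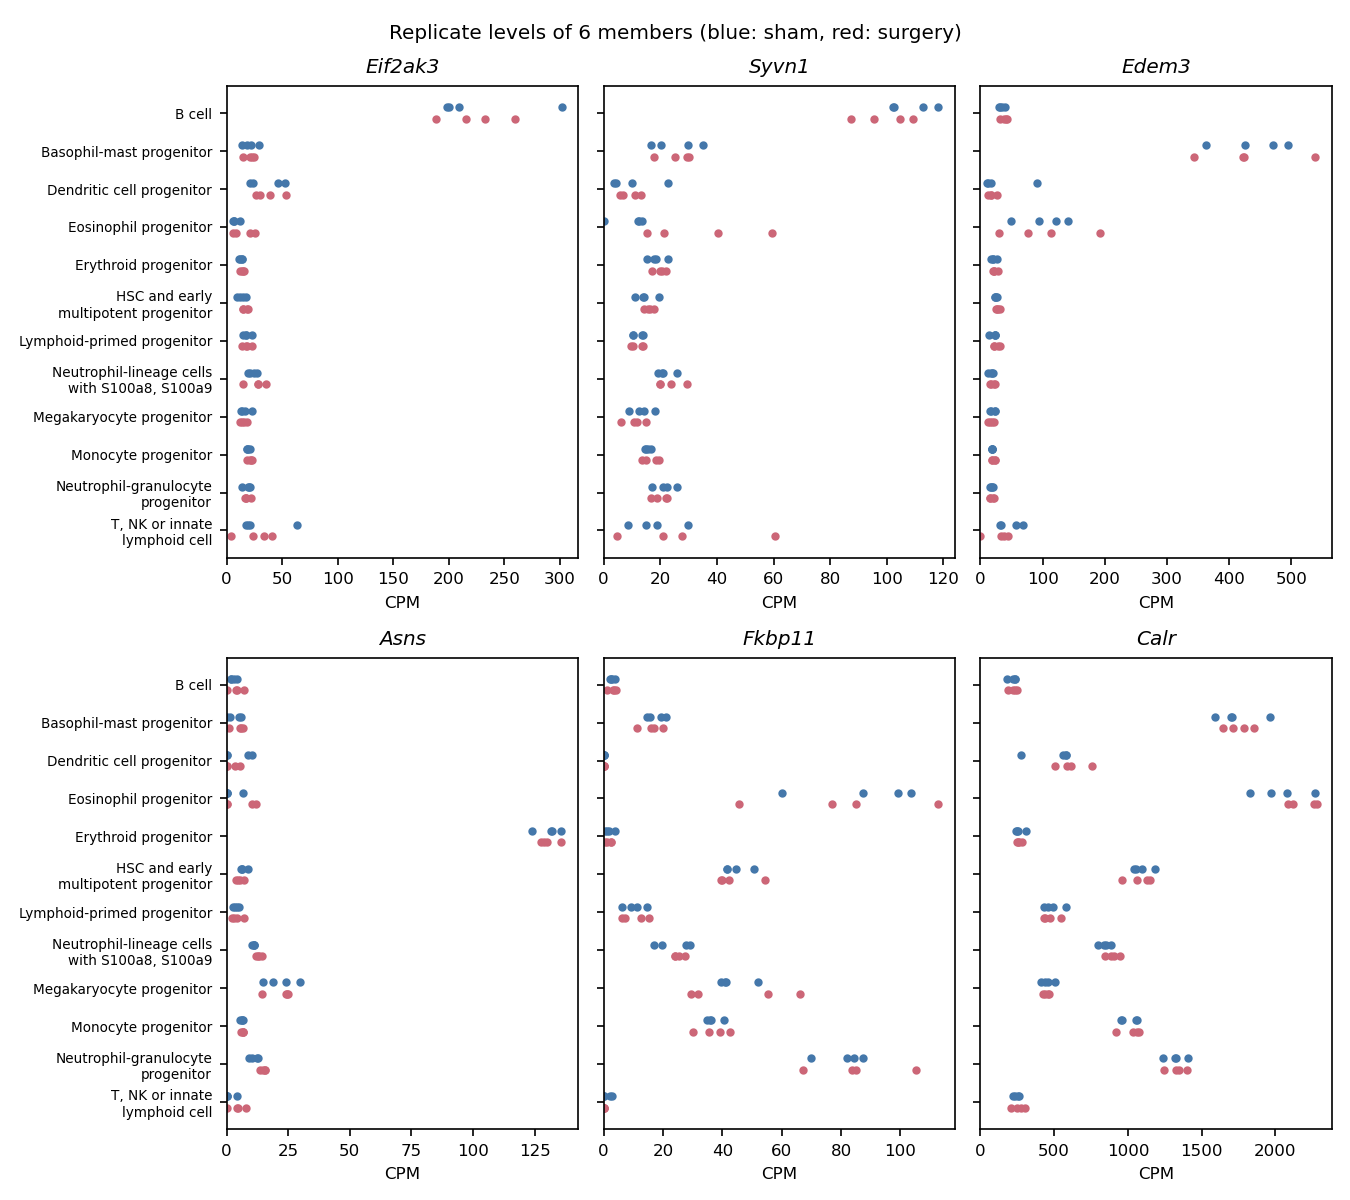
CPM of 6 genes in each of the 12 named classes, 1 point per replicate (4 sham in blue, 4 surgery in red). B cell replicates of Eif2ak3 lie between 188 and 302, basophil-mast replicates of Edem3 between 343 and 538 and erythroid replicates of Asns between 124 and 136, with sham and surgery intermingled.

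Among genes of translocation into the ER, the order of classes differed from gene to gene. Sec61b, a subunit of the channel through which new proteins enter the ER, was 1434 CPM in neutrophil-granulocyte progenitors, 1239 CPM in neutrophil-lineage cells and 365 CPM in T, NK or innate lymphoid cells. Sdf2l1, a chaperone cofactor, was 303 ± 18.9, 236 ± 12.2 and 35.1 ± 14.6 CPM in the same 3 classes. Sec61a1, the other channel subunit measured, was highest in eosinophil progenitors, followed by basophil-mast and monocyte progenitors, and neutrophil-lineage cells came below the HSC and lymphoid-primed classes. Derl2, of the machinery that draws misfolded proteins out of the ER, was 31.9 CPM in its top and 18.6 CPM in its lowest class. Its relative Derl1 was 105.8 CPM in erythroid progenitors, the top class, and 60.04 CPM in B cells, the lowest. Among the remaining folding genes, P4hb, protein disulfide isomerase, was 1033 ± 162 CPM in eosinophil progenitors and 107 ± 4.32 CPM in erythroid progenitors. Canx, the membrane lectin calnexin, was 749 ± 143 CPM in eosinophil progenitors and 446 ± 14.8 CPM in erythroid progenitors. The erythroid level of Canx was above its median class (429 CPM), and its lowest class was T, NK or innate lymphoid cells (209 CPM). Pdia3, its partner oxidoreductase, was 610.1 ± 18.8 CPM in neutrophil-granulocyte progenitors and 231 ± 16.1 CPM in B cells.

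Surgery was then compared with sham within each class, to ask whether targets of XBP1 moved where the gene of its activating sensor was higher. A gene is said to have risen or fallen where edgeR's quasi-likelihood test, fitted on all genes of the class with batch as a term, gave a Benjamini-Hochberg adjusted p under 0.05. Each fold change is given on the log2 scale as surgery relative to sham, with its SE. Ern1, on chromosome 11 from 106394650 to 106487852 (GRCm38), is not among the 38 genes. In the HSC class its sham replicates were 175 and 142 CPM in batch 1 and 119 and 134 CPM in batch 2, and its surgery replicates 232 and 215, then 187 and 165 CPM. Surgery lay above sham within each batch, and the groups overlapped only across batches. Ern1 rose there by 0.50 ± 0.07 (adjusted p = 0.000969). In lymphoid-primed progenitors Ern1 rose from sham values of 162, 127, 109.7 and 123 CPM to 191, 228, 183 and 207 CPM, a change of 0.69 ± 0.08 (adjusted p = 3.2e-05), and all surgery replicates lay above all sham replicates. Without a batch term the call in the HSC class was lost (0.50, adjusted p = 0.19). The HSC class joined 2 clusters, which were tested alone in an alternative added after seeing the data. The change was 0.64 in the 1683 cells led by Hlf and Mecom (adjusted p = 1.49e-05). It was 0.29 in the 826 cells with Cd27 and Cd34 among the leading genes (adjusted p = 0.9999). Median UMIs per cell were 7684 and 15870, so the latter cells weigh more in the sums than their number shows.

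In no other named class did Ern1 pass the test. Its fold change was 0.21 ± 0.05 in monocyte progenitors (adjusted p = 0.404) and 0.13 ± 0.06 in neutrophil-granulocyte progenitors (adjusted p = 0.988). In both, the 95% interval lay above 0. In erythroid progenitors it was -0.39 ± 0.17 (adjusted p = 0.9999), from 14.98 to 11.24 CPM, with all surgery replicates below sham. Whether the change differed between classes was not tested. Tex2, the neighbouring gene on chromosome 11 from 106502147 to 106613423, rose in the HSC class from 73.9 ± 11.2 to 119.6 ± 4.37 CPM (0.73 ± 0.08, adjusted p = 6.5e-05). It also rose in neutrophil-granulocyte progenitors (1.14), neutrophil-lineage cells (0.88) and monocyte progenitors (0.79), where Ern1 was not called. In lymphoid-primed progenitors Tex2 was 98.6 ± 12.3 and 125 ± 6.10 CPM (0.34, adjusted p = 0.0982).

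None of the 38 genes passed the test in the HSC class, where 0.0888% of 11265 genes were called, or in lymphoid-primed progenitors, where 0.259% of 10444 genes were. DESeq2 also called none of them in either class. The test covered 35 of the 38 genes in the HSC class, the others being Trib3 (4 UMIs), Chac1 (2 UMIs) and Wfs1 (43 UMIs). It covered 34 in lymphoid-primed progenitors, where Asns (59 UMIs) was also too low. In the HSC class 23 genes had a positive and 12 a negative fold change, with a median of 0.04 against -0.00 over all genes tested. In lymphoid-primed progenitors 26 were positive and 8 negative, with a median of 0.08 against 0.00. At an unadjusted p under 0.05 in edgeR there were 0 of 35 genes in the HSC class, against 3.8% of all genes, and 3 of 34 in lymphoid-primed progenitors, against 5.22%.

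**Figure D3:**
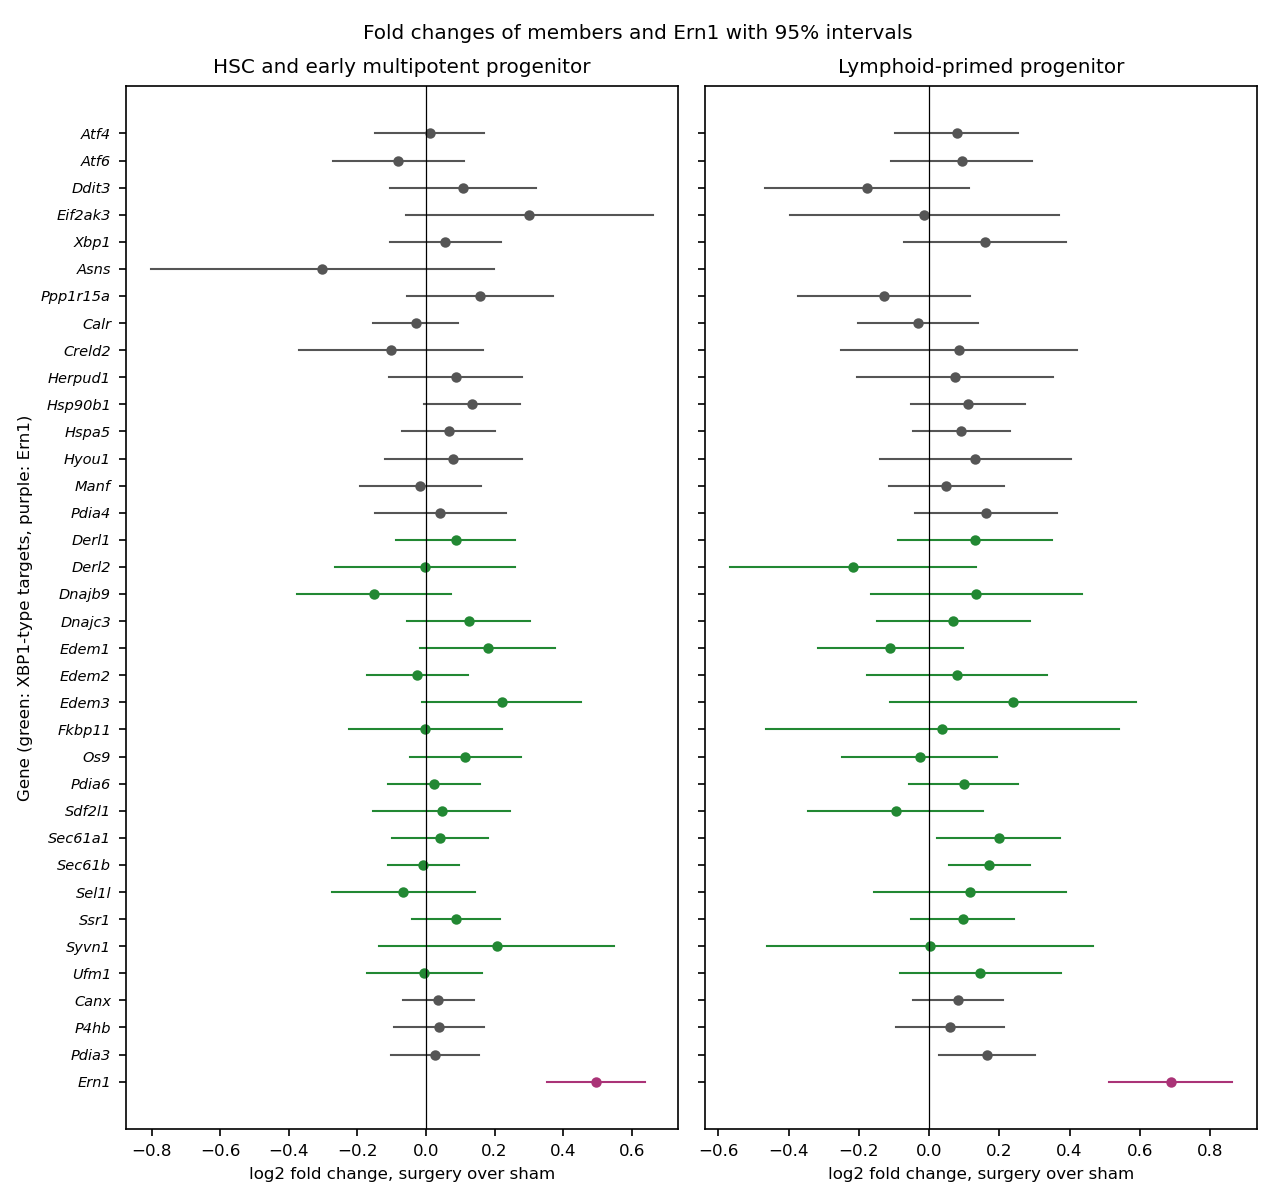
Log2 fold change of surgery over sham with its 95% interval for each gene tested in the HSC class (left) and in lymphoid-primed progenitors (right), XBP1-type targets in green and Ern1 in purple. The intervals of Ern1 begin at 0.35 and 0.51. Of the 38 genes, 35 were tested in the HSC class and 34 in lymphoid-primed progenitors. Their intervals lie wholly above 0 for 0 and 3 genes, and wholly below 0 for 0 in either class.

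None of the regulators was called in either class. Xbp1 in the HSC class was 68.1, 58.9, 68.7 and 67.1 CPM after sham and 63.1, 69.6, 70.8 and 67.4 CPM after surgery, a fold change of 0.06 ± 0.08 with a 95% interval of -0.10 to 0.22. Its groups overlapped. This value depended on how cells were assigned. It was 0.48 when members and pathway genes were left out of clustering. With a hashtag minimum from a mixture model it was 0.44, and with called doublets kept 0.42. In the cluster with Cd27 and Cd34 alone, where Ern1 was not called, it was -0.20. The lowest adjusted p over these settings and all others tried was 0.2595. In lymphoid-primed progenitors Xbp1 was 46.7, 48.6, 61.0 and 52.4 CPM after sham and 56.8, 64.8, 56.1 and 55.5 CPM after surgery (0.16 ± 0.11, interval -0.07 to 0.39). There it was 0.37 when members and pathway genes were left out of clustering, 0.49 with thinned cells and 0.65 with cells classed one by one, with a lowest adjusted p of 0.2885 over all settings. The within-batch fold changes were 0.35 in batch 1 and -0.02 in batch 2. Eif2ak3 in the HSC class was 14.4, 12.4, 9.27 and 17.2 CPM after sham and 18.0, 18.9, 14.3 and 14.5 CPM after surgery (0.30 ± 0.17, adjusted p = 0.9999), with the widest interval among the regulators, -0.06 to 0.66. In lymphoid-primed progenitors it was 18.2 ± 3.38 and 18.2 ± 3.58 CPM (-0.01, and 0.87 with cells classed one by one, adjusted p = 0.343).

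Atf6 in the HSC class was 57.9 ± 7.43 CPM after sham and 54.9 ± 5.12 CPM after surgery (-0.08 ± 0.09), and in lymphoid-primed progenitors 102 ± 18.0 and 106 ± 8.17 CPM (0.09 ± 0.10). Atf4 was 178 ± 23.5 and 177 ± 10.1 CPM in the HSC class (0.01 ± 0.08). In lymphoid-primed progenitors Atf4 was 181, 149.6, 135 and 141 CPM after sham and 149.0, 146, 157 and 169 CPM after surgery (0.08 ± 0.08), negative in batch 1 (-0.16) and positive in batch 2 (0.24). Ddit3 was 36.9 ± 5.71 and 38.7 ± 2.82 CPM in the HSC class (0.11 ± 0.10), and 39.5 ± 6.72 and 33.9 ± 2.91 CPM in lymphoid-primed progenitors (-0.18 ± 0.14). For all 5 regulators tested the sham and surgery replicates overlapped in both classes.

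Of the ATF4 and CHOP targets, Ppp1r15a had a fold change of 0.16 in the HSC class (interval -0.05 to 0.37) and -0.13 in lymphoid-primed progenitors (-0.37 to 0.12). Asns in the HSC class was 6.76 CPM after sham and 5.26 CPM after surgery (-0.30, interval -0.80 to 0.20).

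The chaperones also overlapped between groups. Hspa5 in the HSC class was 622, 497, 488 and 469.9 CPM after sham and 603, 564, 537 and 464 CPM after surgery (0.07 ± 0.07, interval -0.07 to 0.20). In lymphoid-primed progenitors it was 488, 384, 379 and 379 CPM, then 459.5, 484, 388 and 385 CPM (0.09 ± 0.07). Within each group the batch 1 replicates were above those of batch 2 in both classes, and sham and surgery overlapped. Hsp90b1 had the lowest unadjusted p of the 35 genes in the HSC class (0.13 ± 0.07, unadjusted p = 0.0573 in edgeR, 435 ± 26.7 and 478 ± 45.3 CPM). The 8 genes of this group had fold changes between -0.10 and 0.13 in the HSC class and between -0.03 and 0.16 in lymphoid-primed progenitors. The 8 genes with the ER stress response element had medians of 0.05 and 0.08 in the 2 classes, 6 and 7 of them positive.

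None of the 17 XBP1-type targets was called in the 2 classes in which Ern1 rose. In the HSC class 10 were positive and 7 negative, between -0.15 (Dnajb9) and 0.22 (Edem3), with a median of 0.04. Dnajb9, a co-chaperone of BiP, is a well-known XBP1 target. It was 34.6, 28.2, 39.6 and 40.5 CPM after sham and 32.1, 27.2, 34.5 and 33.4 CPM after surgery. Within each group batch 2 was higher, and over all replicates the groups overlapped. Within batch 2 the surgery replicates lay below the sham replicates, and within batch 1 they overlapped. The 95% intervals of 14 of the 17 ended below the lower bound of Ern1's interval, 0.35, and those of Syvn1, Edem1 and Edem3 did not. In lymphoid-primed progenitors 13 were positive and 4 negative, between -0.22 (Derl2) and 0.24 (Edem3), with a median of 0.10. There the intervals of 15 of 17 ended below Ern1's lower bound, 0.51, the exceptions being Edem3 and Fkbp11. All 17 ended below Ern1's own estimate. These counts compare sizes of change with that of Ern1 and do not tell whether the targets moved. Without adjustment, the interval lay above 0 for 0 of 17 targets in the HSC class and 2 of 17 in lymphoid-primed progenitors. It lay below 0 for 0 in either class. The median in the HSC class was -0.01 without batch 1 surgery replicate 1, 0.14 when members and pathway genes were left out of clustering and 0.13 with cells classed one by one.

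Sec61b had the lowest unadjusted p of the group in lymphoid-primed progenitors. Its sham replicates were 632, 628, 633 and 585 CPM and its surgery replicates 689.6, 682, 747 and 659.9 CPM, all above sham, as for 1.26% of all genes in this class. The fold change was 0.17 ± 0.06, with 0.12 in batch 1 and 0.21 in batch 2 (unadjusted p = 0.00527 in edgeR, adjusted p = 0.521). Sec61a1, the channel's main subunit, was 113 ± 12.5 CPM after sham and 127 ± 8.97 CPM after surgery (0.20 ± 0.09, adjusted p = 0.875). Pdia3 was 282 ± 19.1 and 313 ± 15.6 CPM (0.17 ± 0.07, adjusted p = 0.808). Both groups overlapped for Sec61a1 and Pdia3. With cells classed one by one from marker levels, there were 791 lymphoid-primed cells in place of 1914. Sec61b then had a fold change of 0.48 and an adjusted p of 0.0103 in edgeR, the single call among the 38 genes under any alternative. In that setting 33 of 7821 genes were called, 17 of them also called in the main fit. Summed B cell markers in lymphoid-primed progenitors were 108 to 275 CPM after sham and 121 to 387 CPM after surgery, and summed basophil-mast markers 41.2 to 47.2 and 43.2 to 174 CPM; their part in these values was not tested.

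**Figure D4:**
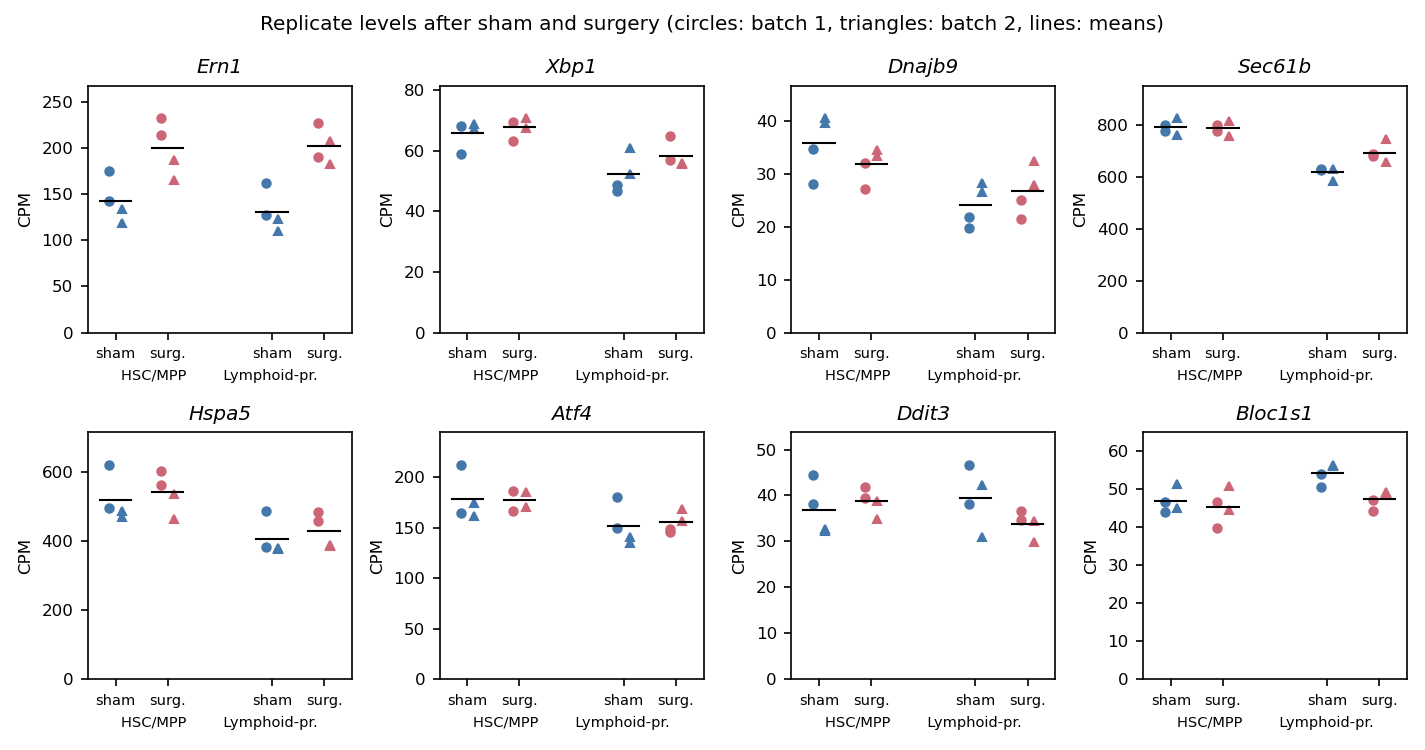
CPM of 8 genes in each replicate of the HSC class (HSC/MPP) and of lymphoid-primed progenitors after sham and surgery (surg.), with batch 1 as circles, batch 2 as triangles and lines at the group means. Ern1 means go from 142.5 to 199.7 and from 130.4 to 202.1, whereas Xbp1, Dnajb9, Hspa5, Atf4 and Ddit3 overlap between groups in both classes. Sec61b lies above sham in lymphoid-primed progenitors, and Bloc1s1 below.

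Across all 12 named classes 387 tests of the 38 genes were made and 0 were called in edgeR or DESeq2. In edgeR 16 had an unadjusted p under 0.05 (4.13%), 13 of them positive. Over all genes that share was between 3.35% and 5.42% in the single named classes. The share of all genes called was 0.107% in neutrophil-granulocyte progenitors, 0.0544% in monocyte progenitors, 0.0411% in neutrophil-lineage cells and 0.032% in B cells. It was 0 in the basophil-mast, dendritic cell, eosinophil, erythroid, megakaryocyte and T, NK or innate lymphoid classes. None was called in the 6 unnamed clusters tested, where the shares of all genes were 0.0166%, 0.0541%, 0.0286% and 0.0111% in those led by Apba1, Aff2, Myl4 and Zg16, and 0 in those led by Ms4a1 and Ighd. The lowest adjusted p was that of Asns in neutrophil-granulocyte progenitors, which was 12.5, 10.3, 9.04 and 12.8 CPM after sham and 14.7, 15.7, 13.4 and 15.5 CPM after surgery. All surgery replicates lay above sham, as for 1.02% of genes there, and the fold change was 0.45 ± 0.12 (unadjusted p = 0.00193 in edgeR, adjusted p = 0.444). Asns in neutrophil-lineage cells also had no overlap (0.26, adjusted p = 0.9996), as for 0.967% of genes there. Surgery replicates were all below sham for Sec61a1 in B cells (0.896% of all genes), Ppp1r15a in erythroid progenitors (0.843%), and Herpud1 and Hsp90b1 in T, NK or innate lymphoid cells (1.71%), none of them called.

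Pdia6, an oxidoreductase among the XBP1-type targets, had the lowest unadjusted p of all. In neutrophil-lineage cells it was 399.8, 475.5, 424 and 442 CPM after sham and 541, 508, 529.9 and 446 CPM after surgery (0.22 ± 0.06, unadjusted p = 0.00126 in edgeR, adjusted p = 0.689), with overlap through 1 replicate of each group. Sec61b in monocyte progenitors was 1189 ± 33.0 and 1239 ± 26.6 CPM, all surgery replicates above sham, as for 1.13% of genes there (0.07 ± 0.03, adjusted p = 1). Sel1l, the partner of HRD1, had a negative value in megakaryocyte progenitors, from 54.4 ± 9.48 to 39.8 ± 5.45 CPM (-0.42 ± 0.15, adjusted p = 1). Counts at an unadjusted p under 0.05 were 4 of 36 genes in monocyte progenitors (4.66% of all genes), 4 of 35 in neutrophil-granulocyte progenitors (4.95%) and 2 of 35 in megakaryocyte progenitors (3.78%). They were 1 of 35 in neutrophil-lineage cells (4.41%), 1 of 33 in B cells (3.35%) and 1 of 34 in erythroid progenitors (3.37%). They were 0 in the basophil-mast (3.47%), dendritic cell (3.5%), eosinophil (4.69%) and T, NK or innate lymphoid classes (5.42%). In the sum over all cells, 0 of 38 genes were called (0.0415% of all genes), 31 were positive with a median of 0.07, and 7 had an unadjusted p under 0.05 in edgeR (4.49% of all genes). That sum moves with the makeup of the sort.

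**Figure D5:**
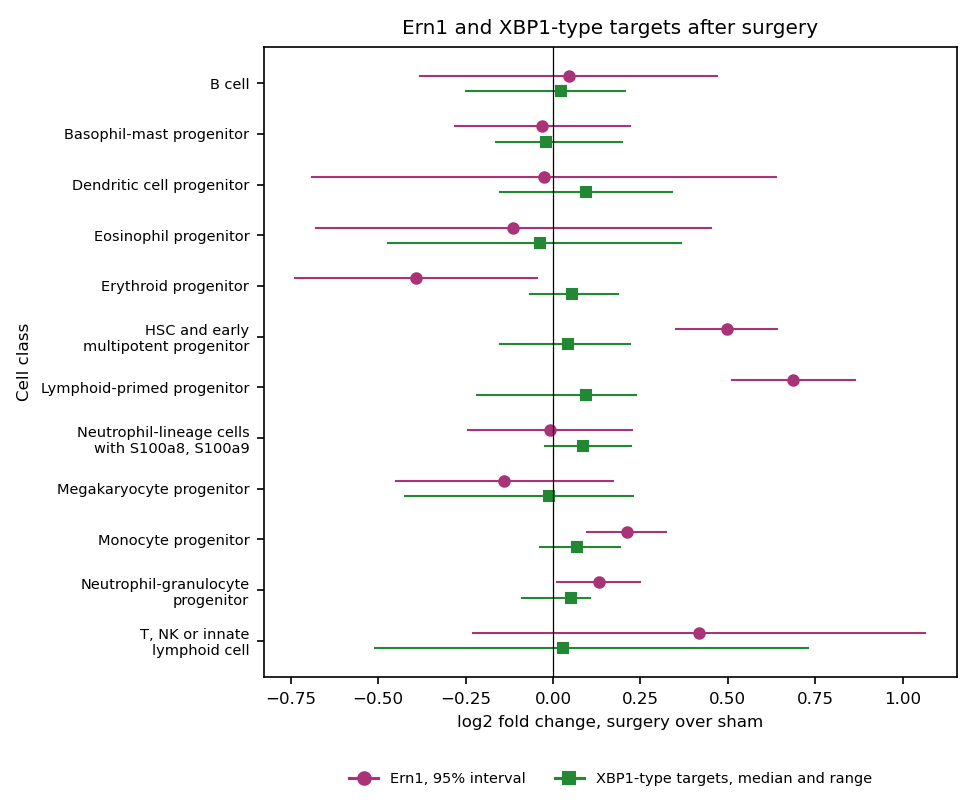
Log2 fold change of surgery over sham in the 12 named classes for Ern1 (purple, with 95% interval) and for the XBP1-type targets tested (green, median with the range from lowest to highest gene). Ern1 is at 0.50 in the HSC class and 0.69 in lymphoid-primed progenitors, its interval also lies above 0 in monocyte and neutrophil-granulocyte progenitors and below 0 in erythroid progenitors, and in the first 2 classes the medians of the targets are 0.04 and 0.10. The medians elsewhere lie between -0.04 and 0.10.

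In the other classes the medians of the XBP1-type targets were 0.10 in dendritic cell progenitors, 0.08 in neutrophil-lineage cells, 0.07 in monocyte progenitors, 0.05 in neutrophil-granulocyte and in erythroid progenitors, 0.03 in T, NK or innate lymphoid cells and 0.02 in B cells. They were -0.01 in megakaryocyte, -0.02 in basophil-mast and -0.04 in eosinophil progenitors. Whether they differ from those in the classes where Ern1 rose was not tested. The medians and signs over all genes of these other classes are not set beside them, so a shift of the targets alone is not shown. In neutrophil-lineage cells 15 of 17 were positive, with none called, while Ern1 itself was 59.2 ± 10.5 and 58.4 ± 6.57 CPM. The 17 values come from the same 8 replicates and are not separate results. Between the 2 batches, the term for a different effect of surgery passed the test for 0 of the 387 (lowest adjusted p = 0.527), and 25 had an unadjusted p under 0.05 in edgeR (5.41% of all genes in these classes). That term passed for 0.0178% of all genes in the HSC class, 0.0287% in lymphoid-primed, 0.12% in basophil-mast, 0.0104% in erythroid, 0.0427% in megakaryocyte, 0.0544% in monocyte and 0.0082% in neutrophil-granulocyte progenitors. It passed for 0.113% in neutrophil-lineage cells, 0.0219% in T, NK or innate lymphoid cells and 0 in the other named classes. Over the 12 class means, 14 of the 17 targets had a positive Spearman rho with Ern1, a description over points that share replicates and scaling. Ern1 was highest in eosinophil progenitors (278 ± 121 CPM), the HSC class (171 ± 39.4 CPM) and lymphoid-primed progenitors (166 ± 43.0 CPM), whose replicates overlapped, and lowest in erythroid progenitors (13.1 ± 2.38 CPM).

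A wider list of 100 pathway genes, Ern1 included, gave the surroundings of these 38 genes. Apart from Ern1, 0 of its 90 genes tested in the HSC class and 0 of 89 in lymphoid-primed progenitors were called in edgeR, with 55 and 53 positive and medians of 0.02 and 0.04. In the HSC class 2 of them had an unadjusted p under 0.05 (3.8% of all genes), and in lymphoid-primed progenitors 9 did (5.22%). The lowest adjusted p among the latter was 0.385, for Creb3l2, a relative of ATF6, which was 8.31 ± 1.69 CPM after sham and 14.4 ± 1.83 CPM after surgery (0.76 ± 0.22), all surgery replicates above sham, as for 1.26% of all genes. Of 6 transcripts listed as cut by IRE1, 3 were tested in lymphoid-primed progenitors, 2 of them positive (Hgsnat 0.08 and Ergic3 0.04), with a median of 0.04. The third, Bloc1s1, whose mRNA is a known substrate of IRE1, was 54.0, 50.4, 55.9 and 56.3 CPM after sham and 47.1, 44.2, 49.0 and 48.7 CPM after surgery in lymphoid-primed progenitors. All surgery replicates lay below sham, as for 1.37% of genes in this class, and the fold change was -0.18 ± 0.11 (adjusted p = 0.989). In the HSC class Bloc1s1 was 46.7 ± 3.24 and 45.3 ± 4.54 CPM (-0.03 ± 0.10).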

How the data were processed

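Single cells from 2 PIPseq libraries were analysed from the deposited matrices, whose values are raw counts of UMIs per gene and cell. Per the submitters' processing notes, Cell Ranger and GRCm38 were used; versions are not given in the sources used here. The filters were a minimum of 500 genes and 1000 UMIs and a maximum of 10% mitochondrial counts, and cells were kept where exactly 1 hashtag had 200 or more counts, so barcodes with several hashtags were removed as doublets, and those called doublets were removed too. Cells were clustered with scanpy 1.11.5 (2000 variable genes, 30 components, 15 neighbours, resolution 1.0). A cluster took the class with the highest mean marker fold, with at least 3 markers up and 1 among its top 10 genes; the last condition was added after the clusters were seen. UMIs were summed per class and replicate, with at least 10 cells each, and tested with edgeR 4.0.16 (quasi-likelihood, TMM, filterByExpr, batch and surgery as terms), with Benjamini-Hochberg adjustment within a class. DESeq2 1.42.0 was an alternative. The procedure was also run on simulated counts that held no difference between batches, so that run does not show how well changes are recovered in these data. Hashtag names gave the groups; batch 2 lists its surgery hashtags first, and wrong names would exchange its groups. The members and lists were chosen with earlier results of these data known. Genes named with replicate values after surgery were the regulators, Hspa5 and members with an unadjusted p under 0.05 and 1 sign in both batches where Ern1 was called. Across classes they were the 3 members of each role with the highest ratio of top to median class and at least 20 CPM there. Ern1 and Tex2 were named too; other genes named were chosen after their values were seen.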

Additional observations from a re-analysis of the deposited data

Results flagged for a closer look

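In 4 of 38 groups of 4 replicates, 1 replicate lay far from the others by Dixon's criterion. Chance meets that criterion in about 1 of 20 groups drawn from 1 normal population. Here each group joined 2 batches and the groups reuse the same 8 replicates, so the count cannot be set against that rate. Xbp1 in the HSC class was 58.89 CPM in sham replicate 2 of batch 1, where the nearest other sham replicate was 67.12 CPM. Hspa5 in lymphoid-primed progenitors was 487.7 CPM in sham replicate 1 of batch 1, with the next at 384.0 CPM. Sec61b in lymphoid-primed progenitors was 584.9 CPM in sham replicate 2 of batch 2, with the next at 628.1 CPM. Xbp1 in lymphoid-primed progenitors was 64.79 CPM in surgery replicate 2 of batch 1, with the next at 56.83 CPM.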

How the results depend on the processing

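No result past the threshold changed direction. Ern1 in all cells was called by DESeq2 (0.2781, adjusted p = 0.000468) and without a filter on low counts (0.2757, adjusted p = 0.00358), and Ern1 in monocyte progenitors without that filter (0.2047, adjusted p = 0.0248). Ern1 in the HSC class was not called without a batch term (0.4998, adjusted p = 0.19) or, added after seeing the data, in the cluster with Cd27 and Cd34 alone (0.2874, adjusted p = 0.9999). The median of the XBP1-type targets in the HSC class was 0.1383 when members and pathway genes were left out of clustering and 0.1252 with cells classed one by one, against 0.04; the cause was not tested. With cells classed one by one, 1 member was called in lymphoid-primed progenitors, Sec61b (0.4847, adjusted p = 0.0103), where 33 of 7821 genes were called. Over all alternatives Ern1 ranged from 0.2874 to 0.8088 in the HSC class and from 0.6263 to 1.068 in lymphoid-primed progenitors, the upper ends coming from clustering without members and pathway genes and from cells classed one by one. Xbp1 ranged from -0.197 to 0.4834 and from 0.0843 to 0.6543 in these classes, and Eif2ak3 from 0.0545 to 0.5399 and from -0.1913 to 0.8695, with none called; the cause was not tested. Leaving out each replicate in turn gave Ern1 values of 0.4315 to 0.5463 in the HSC class, 0.6263 to 0.7591 in lymphoid-primed progenitors, 0.2291 to 0.3057 in all cells and 0.1781 to 0.2532 in monocyte progenitors. The median of the targets was then -0.01211 to 0.07352 in the HSC class and 0.05351 to 0.1568 in lymphoid-primed progenitors, and 0 members were called. With a replicate block Ern1 was 0.4886 (adjusted p = 0.000311) and 0.6795 (adjusted p = 2.24e-05) and 0 members were called in either class. Deviations of same-numbered replicates from their group means correlated at 0.0038 in batch 1 and 0.0033 in batch 2. With 2 replicates per group the deviations mirror each other, so each batch gives 1 value. Whether same-numbered replicates share a source cannot be told from these values. Eosinophil, dendritic cell and T, NK or innate lymphoid classes had the fewest UMIs, and small changes were not detectable there. In the deeper classes small changes can also go uncalled, so a lack of calls does not show their absence.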
